A study of Homo sapiens with 6 samples.

Results

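Purine synthesis enzymes are described here in a prednisolone-resistant leukaemia line and in its sensitive parent. The 10 genes were taken by name from the 25838 genes of the deposited table: PPAT, GART, PFAS, PAICS, ADSL and ATIC, which build inosine monophosphate (IMP), IMPDH1, IMPDH2 and GMPS, which turn IMP into guanosine monophosphate (GMP), and ADA, which deaminates adenosine. All 10 had a row, and all 10 were among the 14869 genes with enough counts to be tested. Sup-PR is a sub-clone, resistant to prednisolone, of the acute lymphoblastic leukaemia line Sup-B15, which is of B-cell precursor origin. Each line was sequenced in 3 RNA libraries. The methods of the study name no drug treatment for them and do not say whether Sup-PR was kept in prednisolone. The resistant model is therefore 1 clone, and any difference between that clone and the parental line enters the same comparison, whether or not it bears on resistance. Nothing in the labels says that the libraries of a line came from separate cultures, so the spread behind the p-values is that between libraries and may be technical.

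The Sup-PR libraries held between 20112543 and 23608056 counts and the Sup-B15 libraries between 16966569 and 26603422. All 13 precursor B-cell markers fixed for the check of the label were detected in both lines, but their summed level was 7093 to 7770 CPM (counts scaled to a common library size) in Sup-PR cells against 9626 to 10713 CPM in Sup-B15 cells. Of the 13, 8 (61.5%) were lower and 0 higher in Sup-PR at an adjusted p under 0.05 in the edgeR test used below. By that rule 27.4% of all genes tested were lower and 28% higher. Of 7 T-cell markers 3 had a row, and their sum, 9.29 to 13.8 CPM in Sup-PR and 46.9 to 53.7 CPM in Sup-B15, was nearly all TRAC (185 to 309 counts in Sup-PR, 819 to 1355 in Sup-B15), with CD5 and CD8A at 0 to 2 counts. Of 5 NK-cell markers 3 had a row, and their sum, 22.6 to 23.7 CPM in Sup-PR and 52.6 to 60.6 CPM in Sup-B15, was nearly all NKG7, with NCAM1 and KLRF1 at 0 to 5 counts. Of 7 myeloid markers 5 had a row and 2 were tested, of which 1 was lower. Their sum was 5.00 to 7.69 CPM in Sup-PR and 7.33 to 11.2 CPM in Sup-B15. The part of all these marker levels in the results was not tested. Both are cultured leukaemia lines rather than mixed tissue, and bulk RNA does not show how these levels are spread over single cells.

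Cells make purine nucleotides either de novo, by assembling the ring step by step on phosphoribosyl pyrophosphate (PRPP), or by salvage of free bases and nucleosides. The de novo route takes its nitrogen from glutamine, glycine and aspartate and its formyl groups from folate. It ends at IMP, from which separate branches lead to AMP and GMP. Lymphoid cells are known for their dependence on this pathway: mercaptopurine and methotrexate, which act on it, are standard drugs in acute lymphoblastic leukaemia, mycophenolate blocks IMP dehydrogenase, and inherited loss of ADA removes lymphocytes.

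PPAT, which commits PRPP to the pathway, and PAICS, which carries out a carboxylation and the joining of aspartate, lie head to head on chromosome 4. Their starts in the table are 126 bases apart on opposite strands, and their bodies do not overlap. The stretch between the starts is shown because it is the shared start region of both genes. It is chr4:56435616-56435740, plus strand, from the RefSeq windows of GRCh38.p14, and capitals mark the GC box (GGGCGG, searched on both strands), of which it holds 3.
PPAT and PAICS, between their starts: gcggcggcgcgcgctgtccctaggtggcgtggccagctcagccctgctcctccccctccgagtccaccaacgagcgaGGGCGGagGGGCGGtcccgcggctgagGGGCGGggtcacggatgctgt

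The E-box CACGTG, letters that the MYC and USF families of factors are known to bind, was also searched. RefSeq windows from 250 bases before to 50 bases after a start were held for 8 of the 10 genes (not IMPDH2 and ADSL), and the window nearest to the start in the table was used. The E-box reads the same on both strands and shares no letters with a GC box match in these windows. The nearest windows of PPAT and PAICS hold the same E-box, at chr4:56435792-56435797, in an annotated 5′ untranslated exon of PAICS. The ATIC window holds 2, both in untranslated exon sequence of ATIC. The 3 sites are shown with their flanks on the plus strand, at chr4:56435780-56435809, chr2:215312001-215312030 and chr2:215312076-215312105, with the E-box in capitals.
PPAT and PAICS: ctgtatttgctgCACGTGgaaatctccgtt
ATIC, upstream site: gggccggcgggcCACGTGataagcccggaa
ATIC, downstream site: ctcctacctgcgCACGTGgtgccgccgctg

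The nearest windows of GART, PFAS, IMPDH1, GMPS and ADA held no E-box. Of all 34943 RefSeq windows of this length, 7.23% held at least 1 and 0.661% at least 2. GC boxes, found in 44.9% of all windows, were present in every nearest window except that of GART, which held 3 CCAAT boxes (CCAAT on either strand, in 34.6% of all windows). A match describes the letters only. The starts behind the nearest windows of PFAS, GART, ADA and IMPDH1 lie 1671, 599, 534 and 270 bases from the starts in the table, and these windows do not reach the base where the table begins the gene. Of the 5 genes without an E-box match, only GMPS had a window that covers its start in the table.

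In the comparison of Sup-PR with Sup-B15, 9 of the 10 enzymes were higher and 1 was lower in the edgeR quasi-likelihood test at an adjusted p (Benjamini-Hochberg over all genes tested) under 0.05. By the same rule 28% of the genes tested were higher and 27.4% lower, and among protein-coding genes 32.3% were higher and 27.9% lower. The 9 were the whole of the IMP and GMP synthesis enzymes, and ADA was the one that fell. When a fold change over 1.5 was also required, PPAT, PAICS and ATIC were higher and ADA was lower, against 7.53% and 15.4% of all genes. None of the 10 overlapped in CPM between the lines, with 9 above and 1 below, as was true of 30.8% (above) and 30.3% (below) of all genes. The median log2 fold change was 0.54 for the 6 IMP enzymes, 0.35 for the 3 GMP enzymes and -0.01 for all genes tested.

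**Figure D1:**
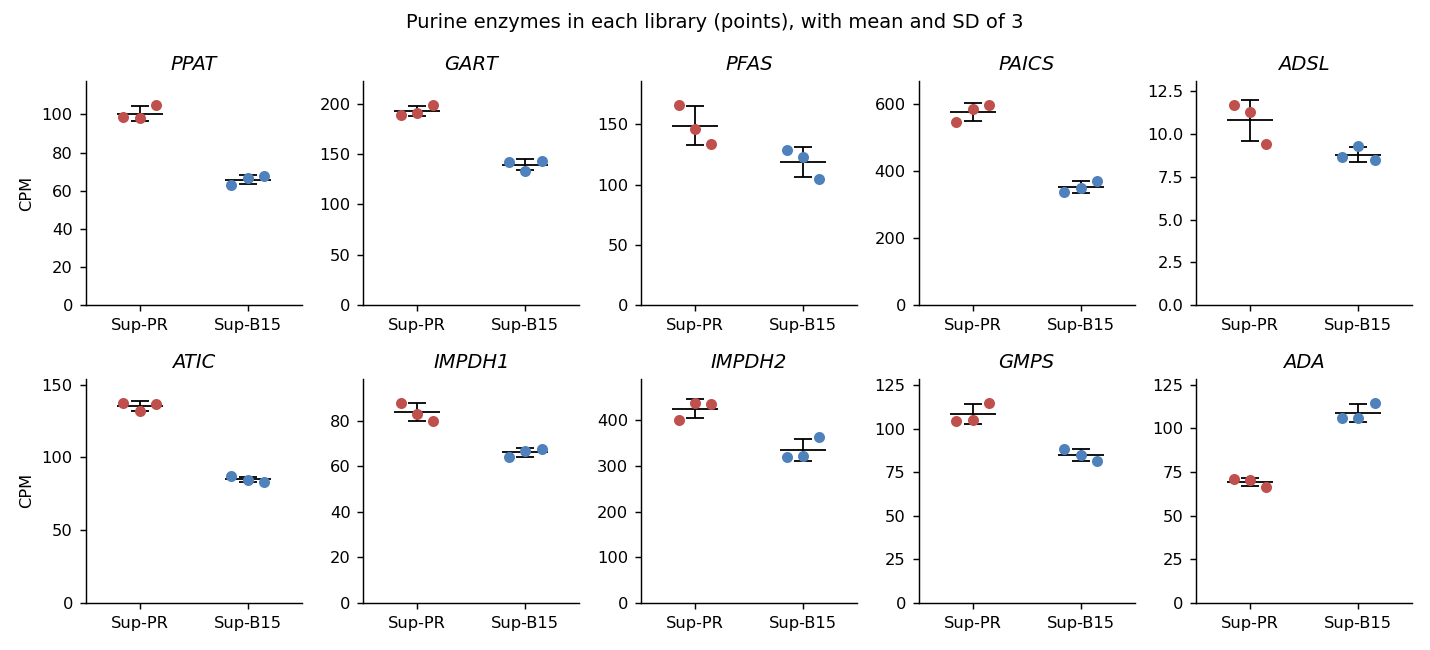
CPM of the 10 enzymes (vertical axes from 0) in each Sup-PR and Sup-B15 library (points), with the mean and SD of 3 libraries in black. The points of Sup-PR lie above those of Sup-B15 in all panels but that of ADA, where they lie below; for PFAS and ADSL the gap is smallest against the spread.

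PPAT, at chr4:56393362-56435615 on the minus strand, measured 98.4, 98.0 and 105 CPM in the Sup-PR libraries, against 63.0, 66.6 and 67.6 CPM in the Sup-B15 libraries. The 3 Sup-PR libraries were close to each other and all above the parental ones. The log2 fold change was 0.61 ± 0.056 (SE), or 1.53-fold, with an adjusted p of 8.2e-07 from edgeR's quasi-likelihood test. This enzyme lay just inside the 1.5-fold limit and fell just outside it without Sup-PR library 3 or Sup-B15 library 1, where the log2 fold change was 0.57 in each case. It was also outside under upper-quartile scaling (0.55), with protein-coding genes alone (0.57), and with at least 10 counts in every library or limma on log2(FPKM + 1) (0.58 each).

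GART, at chr21:33503931-33543491 on the minus strand, is a trifunctional protein that joins glycine and adds the first formyl group. It measured 188, 191 and 199 CPM in Sup-PR and 142, 133 and 143 CPM in Sup-B15. Its 1.38-fold difference (log2 0.47 ± 0.051, adjusted p = 4.5e-06 from the same edgeR test) was the closest of those under 1.5-fold.

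PFAS, at chr17:8247618-8270491 on the plus strand, brings in an amide nitrogen from glutamine. Its level was 166, 146 and 134 CPM in Sup-PR cells, against 129, 123 and 105 CPM in Sup-B15 cells. The lowest Sup-PR library was only slightly above the highest Sup-B15 library, and the coefficient of variation, 10.9% and 10.3% in Sup-PR and Sup-B15, was wide for this set. The log2 fold change was 0.32 ± 0.084 with an adjusted p of 0.0055 in edgeR.

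PAICS, at chr4:56435741-56464579 on the plus strand, showed the largest difference of the 10. It measured 546, 585 and 597 CPM in Sup-PR and 338, 350 and 371 CPM in Sup-B15. All resistant libraries were far above all parental ones. The log2 fold change was 0.71 ± 0.056 (1.63-fold, edgeR adjusted p = 2.2e-07), and 5.56% of all genes tested had a higher one. PAICS had 5.55, 5.97 and 5.70 counts per PPAT count in Sup-PR, against 5.35, 5.25 and 5.49 in Sup-B15, so the ratio within this head-to-head arrangement was higher in each resistant library.

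ADSL, at chr22:40346500-40390463 on the plus strand, splits off fumarate here and again on the branch to AMP. It was counted far less than the others, with 233, 260 and 211 counts in Sup-PR and 151, 257 and 161 counts in Sup-B15, or 11.7, 11.3 and 9.45 CPM against 8.65, 9.32 and 8.47 CPM. The lowest Sup-PR library lay just above the highest Sup-B15 library. The log2 fold change of 0.29 ± 0.116 only just passed the test (edgeR adjusted p = 0.048), and the call was lost in 15 of 18 other settings, among them DESeq2 (adjusted p = 0.092) and leaving out any library except Sup-PR 3. ADSL thus cannot be counted as firmly higher. Its annotation also bears on its level: 1306 of the 1494 coding bases of its longest coding transcript (87.4%) lie in exons of AL022238.4, a read-through gene of ADSL and its neighbour SGSM3 on the same strand, which itself had 0 to 3 counts. How reads of such shared exons were assigned is not given in the sources used here, and the part of this overlap in the low counts was not tested.

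ATIC, at chr2:215311817-215349773 on the plus strand, adds the second formyl group and closes the ring. It measured 138, 132 and 137 CPM in Sup-PR and 87.2, 84.2 and 83.2 CPM in Sup-B15. Replicates were tight in both lines, and the log2 fold change of 0.68 ± 0.051 (1.60-fold) had the lowest adjusted p of the 10 enzymes, 1.2e-07 in edgeR.

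**Figure D2:**
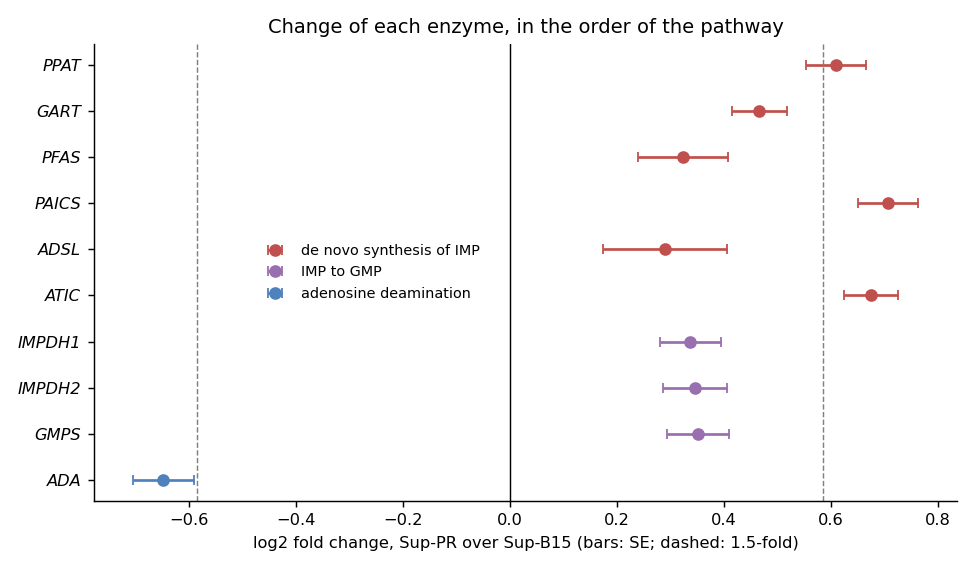
Log2 fold change of Sup-PR over Sup-B15 (horizontal axis, bars SE) for the 10 enzymes in pathway order, coloured by role, with dashed lines at 1.5-fold. PPAT, PAICS and ATIC lie beyond the upper line and ADA (-0.65) beyond the lower one, while the 3 GMP enzymes sit at 0.34 to 0.35.

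The E-box search can be set beside these values. The genes whose nearest window held CACGTG, PPAT, PAICS and ATIC, had log2 fold changes of 0.61, 0.71 and 0.68, and those of GART, PFAS, IMPDH1, GMPS and ADA lay between -0.65 and 0.47. PPAT and PAICS share 1 site and are not separate cases. Over all genes tested with a RefSeq window, the 1245 with CACGTG in a window had a median log2 fold change of 0.08 and 8.59% were higher by over 1.5-fold, against 0.01 and 6.94% of the 8642 without it. The search was made with the changes of these genes already known and has no test.

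The 3 enzymes from IMP to GMP were each higher by about the same amount. IMPDH1 and IMPDH2 are isoenzymes of IMP dehydrogenase, the rate-limiting step towards guanine nucleotides. IMPDH1 (chr7:128392277-128410252, minus strand) measured 87.9, 83.0 and 80.1 CPM in Sup-PR and 64.0, 66.9 and 67.6 CPM in Sup-B15, a log2 fold change of 0.34 ± 0.057 (edgeR adjusted p = 0.00021). IMPDH2 (chr3:49024325-49029408, minus strand) measured 401, 438 and 437 CPM in Sup-PR and 320, 322 and 362 CPM in Sup-B15, a log2 fold change of 0.35 ± 0.061 (edgeR adjusted p = 0.00028).

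IMPDH2, the form known to dominate in proliferating cells, took 82.0%, 84.1% and 84.5% of the counts of both isoenzymes in the Sup-PR libraries. In the Sup-B15 libraries it took 83.3%, 82.8% and 84.3%. The mean share was 83.5% ± 1.33 in Sup-PR and 83.5% ± 0.747 in Sup-B15 (SD, n = 3 each), and the ranges overlapped. The difference of 0.0694 percentage points had p = 1 in a two-sided exact permutation test, which cannot go below 0.1 with 3 libraries a line, and its sign turned when single libraries were left out.

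GMPS (chr3:155870536-155944026, plus strand), which uses glutamine to make GMP, measured 105, 105 and 115 CPM in Sup-PR and 88.2, 84.8 and 81.8 CPM in Sup-B15. The log2 fold change was 0.35 ± 0.057 with an edgeR adjusted p of 0.00015. Added up, the 9 synthesis enzymes reached 1742, 1790 and 1813 CPM in the Sup-PR libraries, against 1239, 1240 and 1290 CPM in the Sup-B15 libraries. PAICS and IMPDH2 were the largest parts of that sum in every library.

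ADA, at chr20:44619522-44652233 on the minus strand, went the other way. It removes the amino group of adenosine and deoxyadenosine and so belongs to breakdown and salvage rather than synthesis. Sup-PR libraries measured 71.1, 70.3 and 66.7 CPM, and Sup-B15 libraries 106, 106 and 115 CPM. All resistant libraries were below all parental ones, with a log2 fold change of -0.65 ± 0.056 (0.638-fold, edgeR adjusted p = 5.1e-07). PAICS had 7.67, 8.33 and 8.96 counts per ADA count in Sup-PR, against 3.19, 3.31 and 3.23 in Sup-B15, a ratio that needs no scaling between libraries.

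Levels of different genes were compared as FPKM, in which counts are scaled by exon length and library size. IMPDH2 was the highest in both lines, at 153 ± 9.09 FPKM in Sup-PR and 119 ± 8.39 FPKM in Sup-B15 (SD, n = 3 each), followed by PAICS at 76.4 and 46.5 FPKM. ATIC came next in Sup-PR (34.4 FPKM), and GART, ADA, PFAS and IMPDH1 then followed with overlapping neighbours between 24.8 and 22.7 FPKM. In Sup-B15 the place after PAICS was held by ADA (37.7 FPKM), ahead of ATIC (21.4 FPKM), and PFAS, IMPDH1 and GART overlapped near 18 FPKM. PPAT, GMPS and ADSL closed the order in both lines, at 18.4, 12.2 and 1.51 FPKM in Sup-PR. In Sup-B15 the PPAT libraries lay between 11.5 and 12.3 FPKM, and GMPS and ADSL averaged 9.46 and 1.23 FPKM. The exon lengths behind all these values cover every annotated transcript of a gene, so the order of the genes depends on them. In CPM, not scaled by length, PAICS averaged 576 and IMPDH2 425 in Sup-PR. For ADSL the exon length, 7111 bases, covers all 23 annotated transcripts, whereas its longest coding transcript spans 1620 bases.

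**Figure D3:**
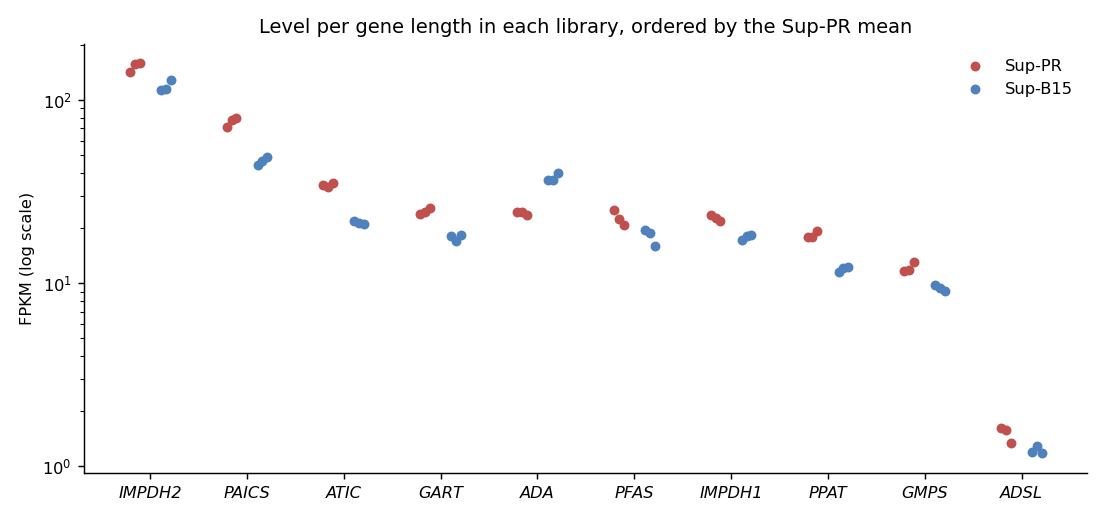
FPKM (log scale) of the 10 enzymes in each Sup-PR and Sup-B15 library, ordered by the Sup-PR mean. IMPDH2 and PAICS lead in both lines, ADSL is far below the rest, and ADA is the only enzyme with its Sup-PR points under those of Sup-B15.

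Other enzymes of the set also start beside a gene on the opposite strand, and these neighbours did not all move alike. PFAS and CTC1, a subunit of the CST complex at telomeres, start 477 bases apart and overlap by 478. CTC1 measured 51.3, 46.1 and 39.8 CPM in Sup-PR and 101, 96.6 and 83.4 CPM in Sup-B15, so it fell (log2 -1.04 ± 0.090, edgeR adjusted p = 5.1e-07) where PFAS was higher. The exons of PFAS share no bases with another annotated gene.

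GART and SON, a splicing cofactor of nuclear speckles, start 873 bases apart. SON measured 506, 436 and 429 CPM in Sup-PR and 517, 506 and 434 CPM in Sup-B15, with overlapping libraries and no call (log2 -0.09 ± 0.076, edgeR adjusted p = 0.34). Of the exon bases of GART, 3.55% lie in exons of SON, and for IMPDH2, PPAT and ADA the share in genes of the opposite strand was 3.35%, 2.22% and 1.61%. Whether the counting used strand is not given in the sources used here, so reads in those bases cannot be assigned to one gene with certainty. PKIG, which overlaps ADA, and SGSM3, which overlaps the read-through gene of ADSL, were not called (log2 0.23 and -0.17, edgeR adjusted p = 0.17 and 0.39), and neither was AC137630.3 beside IMPDH2 (log2 -0.87, adjusted p = 0.41). The remaining neighbours (AC068620.2, AC068620.3, BTF3P6, AL022238.2 and AL022238.4) had too few counts to be tested. Processed pseudogenes of PPAT, PAICS, GMPS and IMPDH1 made up 7 rows with 0 to 19 counts per library, at most 0.811% of the counts of their parent gene (PPATP1).

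**Figure D4:**
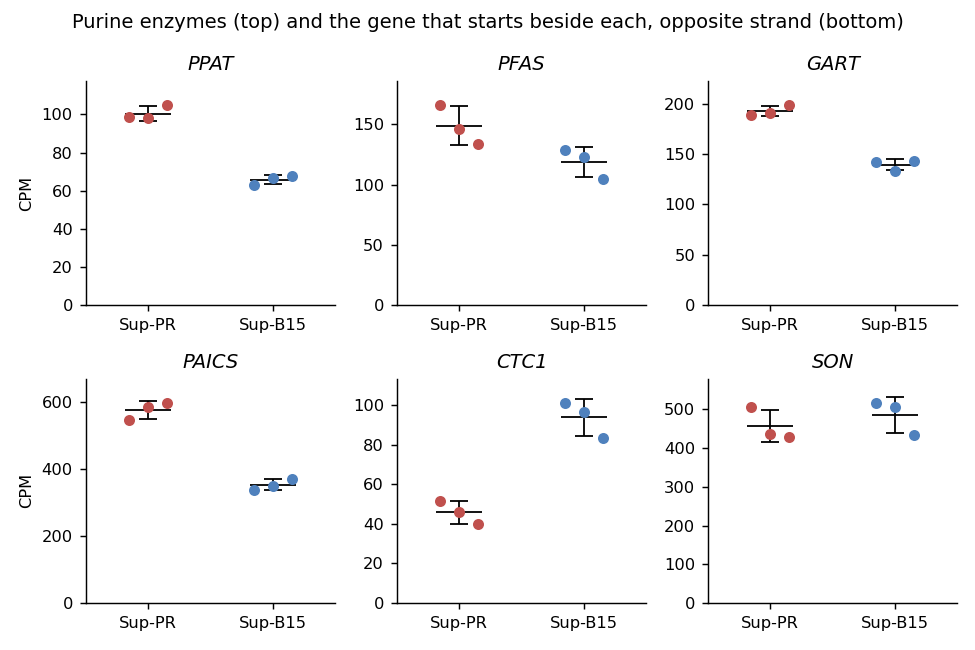
CPM (vertical axes from 0) of PPAT, PFAS and GART (top) and of PAICS, CTC1 and SON, which start beside them on the opposite strand (bottom), in each Sup-PR and Sup-B15 library with the mean and SD of 3. PPAT and PAICS are both higher in Sup-PR, PFAS is higher where CTC1 is lower, and the SON libraries overlap.

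Around the 10 enzymes, 80 further gene symbols of purine metabolism were listed by role, of which 65 had a row and 56 were tested. Of these 25 were higher and 10 lower in Sup-PR at an adjusted p under 0.05 in edgeR, 21 were not called, and the median log2 fold change was 0.17. The shares were 44.6% higher and 17.9% lower, against 28% and 27.4% of all genes tested, and the counts of the separate roles that follow rest on few genes each. The genes that feed the pathway were mixed. PRPS1, which makes PRPP, rose by 0.52 on the log2 scale (121 CPM in Sup-PR, 84.2 CPM in Sup-B15, adjusted p = 1.4e-05 in edgeR), whereas PRPSAP1, a protein associated with that synthase, fell by 0.23 (adjusted p = 0.0025 in edgeR). Among 9 tested enzymes of folate one-carbon metabolism, 5 (55.6%) were higher and none lower: MTHFD2, of the mitochondrial folate route, measured 333 CPM in Sup-PR and 208 CPM in Sup-B15 (log2 0.67, edgeR adjusted p = 6.7e-08), and MTHFD1L and SHMT2, of the same route, had log2 fold changes of 0.68 and 0.41.

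On the branch from IMP to AMP, ADSS, the adenylosuccinate synthase, rose by 0.52 (137 CPM in Sup-PR, 96.1 CPM in Sup-B15, edgeR adjusted p = 5.0e-06). Of the 5 salvage genes tested, 4 (80%) were higher and 1 (20%) lower, against 28% and 27.4% of all genes tested. ADK, which phosphorylates adenosine, had a log2 fold change of 0.63, and HPRT1 and APRT, which salvage hypoxanthine with guanine and adenine, had 0.49 and 0.48. DCK, which phosphorylates deoxynucleosides, was lower, at 200 CPM in Sup-PR against 276 CPM in Sup-B15 (log2 -0.46, edgeR adjusted p = 1.4e-05). MTAP, which frees adenine from methylthioadenosine, had too few counts to be tested, 2, 6 and 3 in Sup-PR and 6, 11 and 4 in Sup-B15; it was singled out after its values were seen.

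Nucleotide kinases were largely higher, with 10 of 14 (71.4%) called higher and 1 lower (median log2 0.52), against 28% higher among all genes tested. NME1, a nucleoside diphosphate kinase, measured 82.4 CPM in Sup-PR and 42.3 CPM in Sup-B15 (log2 0.97, edgeR adjusted p = 1.4e-07), though it overlaps the read-through gene NME1-NME2. AK4, a mitochondrial adenylate kinase with several annotated processed pseudogenes, and NME4, a mitochondrial relative of NME1, had log2 fold changes of 0.68 and 0.63, and AK9 had -0.46. Of the 3 subunits of ribonucleotide reductase, RRM1 was higher (log2 0.26, edgeR adjusted p = 3.6e-04). RRM2 and RRM2B, at log2 fold changes of -0.11 and 0.12, were not called (edgeR adjusted p = 0.14 and 0.13). All 3 subunits are named here, called or not.

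Of 16 tested genes of deamination, reduction and breakdown, 5 were lower and 2 higher (median log2 -0.15). The share lower, 31.2%, was near the 27.4% of all genes tested, and the share higher was 12.5%, against 28%. SAMHD1, which degrades deoxynucleoside triphosphates, was barely expressed in either line, at 0.268 CPM in Sup-PR and 2.48 CPM in Sup-B15 (log2 -3.21, edgeR adjusted p = 6.6e-06). NUDT16, an inosine diphosphatase, and NT5C2, a cytosolic nucleotidase, had log2 fold changes of -1.04 and -0.24. ITPA, which clears inosine triphosphate, and the nucleotidase NT5C3A were higher, at 0.52 and 0.43. Of the other enzymes that work beside ADA, its secreted relative ADA2 was lower at a low level (log2 -1.24, edgeR adjusted p = 0.010), and PNP, the next step after ADA, was not called (log2 0.05, adjusted p = 0.43); both were chosen after their values were seen.

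Of 5 tested genes of nucleoside transport and adenosine receptors, 1 was higher and 2 were lower. SLC29A1, the main equilibrative transporter, measured 66.6 CPM in Sup-PR and 28.2 CPM in Sup-B15 (log2 1.24, edgeR adjusted p = 2.7e-08), and SLC29A2 7.06 CPM in Sup-PR and 16.7 CPM in Sup-B15 (log2 -1.24, edgeR adjusted p = 5.6e-07). ADORA2A, an adenosine receptor, was at 0.388 CPM in Sup-PR and 0.929 CPM in Sup-B15 (log2 -1.24, edgeR adjusted p = 0.011). Summed over the 7 genes of this role with a row, the level was 77.6 to 81.1 CPM in Sup-PR and 46.7 to 55.9 CPM in Sup-B15. SLC29A1 was the largest part of that sum in every library.

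**Figure D5:**
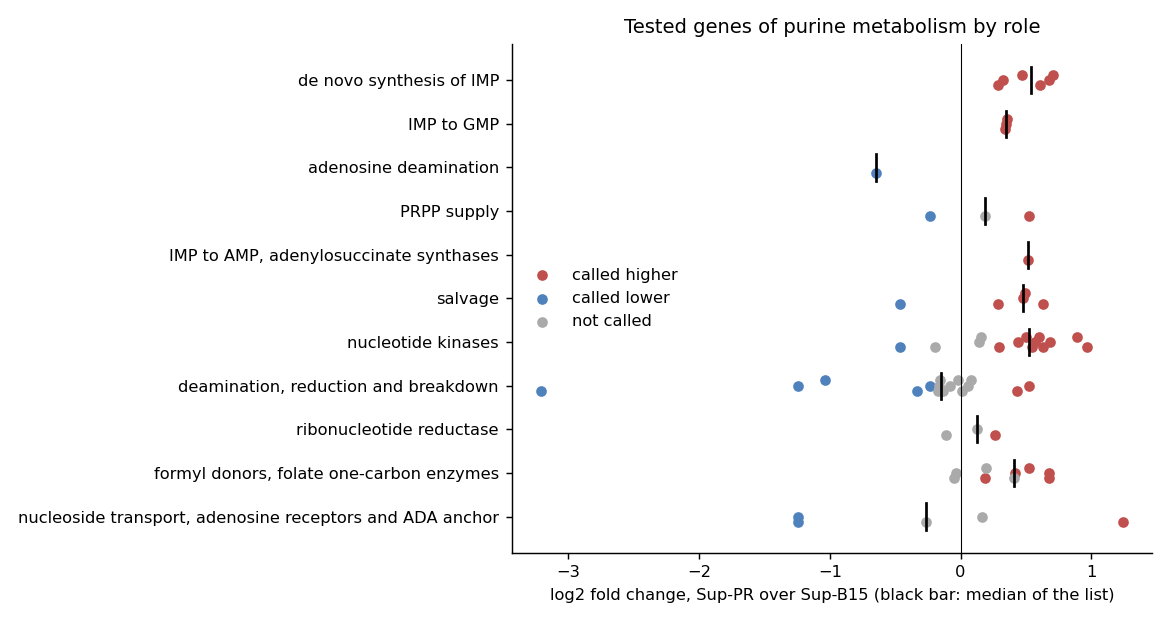
Log2 fold change of Sup-PR over Sup-B15 (horizontal axis) of each tested gene of purine metabolism, grouped by role, with red for higher, blue for lower and grey for not called, and a black bar at the median. The medians lie above 0 for IMP synthesis (0.54), salvage (0.48), nucleotide kinases (0.52) and folate enzymes (0.41). They lie below 0 for breakdown (-0.15) and transport (-0.26). The transport median is that of the uncalled adenosine receptor ADORA2B, while the summed level of this role was higher in Sup-PR.

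Proliferation genes were counted in the same fit. Of 18, 6 (33.3%) were higher and 6 (33.3%) lower, near the 28% and 27.4% of all genes tested, with a median log2 fold change of -0.01. The higher ones were the replication genes PCNA, MCM2, MCM3, MCM4, MCM6 and MCM7, with log2 fold changes between 0.23 and 0.29. The lower ones were MKI67, TOP2A, BUB1, CDK1, AURKB and CCNB1, most of them genes of mitosis, between -0.69 and -0.23. The summed level of the 18 was 6105 to 6171 CPM in Sup-PR and 6515 to 6598 CPM in Sup-B15. Without MKI67 and TOP2A, left out after their values were seen, the direction turned, at 4561 to 4772 CPM in Sup-PR and 4268 to 4454 CPM in Sup-B15. The part of proliferation in the levels of the purine enzymes was not tested.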

How the data were processed

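RNA of 3 Sup-PR and 3 Sup-B15 libraries (RNeasy extraction, NEBNext Ultra kit) was sequenced for the authors. According to the submitters' processing notes HISAT2, CASAVA and DESeq2 were used with GRCh38.p12; what program counted the reads, and on which strand, is not given in the sources used here. The authors deposited raw counts per gene and FPKM (counts scaled by exon length and library size) in 1 table. Its columns of the authors' own comparison (fold change and p-values) and its size-factor-scaled counts were not used. No column was left unmapped, and 99.5% of the genes had the coordinates of GENCODE 29.

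Counts were filtered with filterByExpr, scaled by TMM (CPM use these library sizes) and tested with edgeR 4.0.16 (robust quasi-likelihood fit) in R 4.3.3, with Benjamini-Hochberg adjustment over 14869 genes; the common BCV (biological coefficient of variation) was 0.0646. The fit was tested on simulated data. Groups follow the line named in the labels. Alternatives used DESeq2 1.42.0, limma 3.58.1 on voom weights or log2 FPKM, other scalings and filters, a test against 1.5-fold, a replicate block and each library left out. Python 3.11.15 with SciPy 1.17.1 gave the exact test. Sequences are RefSeq's (GRCh38.p14). Named pathway genes are up to 3 per role and direction with the smallest adjusted p among those called, beside neighbours that start within 1000 bases of an enzyme or overlap it. Members and gene lists were chosen with earlier results of these data known. The metabolite and other measurements of the study were not analysed here.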

Additional observations from a re-analysis of the deposited data

How the results depend on the processing

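Across 18 alternative settings no log2 fold change of the 10 enzymes turned its sign. PAICS was called in all 18; ADSL (log2 0.17 to 0.37 over the 18) was lost in 15, and PFAS in 2 (adjusted p = 0.0626 by limma on unfiltered log2(FPKM + 1)). The other 7 were lost only in edgeR's test against a 1.5-fold change (glmTreat), which left 1 enzyme higher (PAICS) and 0 lower, 5 of the other purine genes (2 higher, 3 lower) and 1802 of all genes. Limma on log2(FPKM + 1), on log2(FPKM + 0.1) and on log2(FPKM + 1) without a filter called 1574, 2180 and 1754 of all genes over 1.5-fold, against 3413, and 6 other purine genes lower in each, against 10. With single libraries left out, 9 to 10 enzymes were called, 8 to 9 of them higher, and 2 to 3 of those over 1.5-fold.

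The difference in IMPDH2 share ranged between -0.415 and 0.824 points with single libraries left out. It turned to -0.201 without Sup-PR library 2, -0.415 without Sup-PR library 3, -0.00331 without Sup-B15 library 1 and -0.263 without Sup-B15 library 2. The labels do not say whether libraries of the same number in the 2 lines belong together. Deviations of same-numbered libraries correlated at 0.188, -0.0768 and 0.250, and those of differently numbered ones lay between -0.312 and 0.181. An effect shared by libraries of the same number was not tested. With the replicate number as a block, 4549 genes were higher and 4503 lower, against 4168 and 4069, and 9 and 1 of the enzymes. The edgeR adjusted p of PFAS was 1.99e-07 with the block, against 0.0055 without it. ADSL rested on 151 to 260 counts a library, and the cause of its lost calls was not tested.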
